A study of Mus musculus with 4 samples.

Results

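The resident conventional dendritic cells (cDCs) of mouse draining lymph nodes made up 64 of 32725 cells that passed the quality limits in 4 single-cell RNA libraries. A cell was kept for the limits if it had 200 to 5000 genes, at most 20000 UMIs and under 10% of its UMIs from mitochondrial genes, where a UMI (unique molecular identifier) marks 1 captured RNA molecule. It was then counted as a resident cDC if it held no UMI of Cd3d, Cd3e or Cd3g (T cell receptor complex), Cd79a (B cell receptor complex), Siglech (plasmacytoid DC, pDC), Fscn1 (migratory DC) or C1qa, C1qb and C1qc (macrophage complement), at least 3 UMIs of H2-Aa and of Cst3, and at least 1 UMI of Flt3, Zbtb46, Xcr1 or Clec9a. The genes of this rule are therefore descriptions of the cells and were not tested.

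Resident cDCs arise inside the node from blood-borne precursors that need Flt3 ligand, and they present antigen that arrives with the lymph to T cells. Their cDC1 branch depends on Irf8 and Batf3, carries Xcr1 and Clec9a and is known for cross-presenting antigen to CD8 T cells. Their cDC2 branch carries Sirpa and is known for priming CD4 T cells, whereas migratory DCs come from the tissue and carry Ccr7 and Fscn1.

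The EV group consisted of wildtype C57BL/6 mice given a subcutaneous injection of 100 µg extracellular vesicles (EVs) from induced pluripotent stem cells, and the control group of wildtype C57BL/6 mice without EVs. Both groups were represented by 2 libraries of unsorted cells from the draining lymph nodes, described as biological replicates, with no label that names the animals behind each. The sample labels give 24 h and no treatment for the controls, whereas the series text places collection on day 5 and gives phosphate-buffered saline to the controls, so the time and the control injection are uncertain. No sort or enrichment for myeloid cells preceded capture, which leaves few cDCs in a library.

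The 4 libraries held 8361 (control 1), 8297 (control 2), 8665 (EV 1) and 9000 (EV 2) barcodes, with 50749656, 58100433, 68116085 and 70418672 UMIs. After the limits, 8141, 7891, 8164 and 8529 cells were left, with median UMIs per cell of 5502, 6561, 6639 and 6628. The libraries shared between 12 and 26 cell barcodes per pair, and no resident cDC carried a barcode found among the resident cDCs of another library. Scrublet, a doublet caller, marked 3.76%, 2.99%, 1.58% and 3.22% of the cells of the 4 libraries and 0 of the 64 resident cDCs.

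Of the single conditions, the absence of Cd79a and of Siglech kept out the most cells. Cd79a alone kept out 111 cells, Siglech 62, the 4 cDC genes 51, Fscn1 40, the Cd3 genes 17, H2-Aa 6, Cst3 6 and the C1q genes 5. Just inside the last threshold, 20 of the 64 cells passed with a single UMI of Flt3, Zbtb46, Xcr1 or Clec9a, and 51 cells lay just outside it with 0. For H2-Aa, 1 cell lay just inside with 3 UMIs and 1 just outside with 2. For Cst3, 1 cell lay just inside with 3 UMIs and 0 cells had 2.

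The defining genes are protein-coding genes in the GENCODE annotation of mm10. The receptor tyrosine kinase gene Flt3 is at chr5:147330741-147400489 (minus strand) and the cDC transcription factor gene Zbtb46 at chr2:181387762-181459426 (minus strand). The chemokine receptor gene Xcr1 is at chr9:123852315-123862029 (minus strand), and Clec9a, which encodes a receptor for dead-cell actin, is at chr6:129408862-129424763 (plus strand). Cst3 (cystatin C, a cysteine protease inhibitor) is at chr2:148871722-148875692 (minus strand) and the MHC class II gene H2-Aa at chr17:34282744-34287823 (minus strand). Irf8 is at chr8:120736358-120756694 (plus strand), Sirpa at chr2:129592835-129632228 (plus strand) and Dscam, named below among the EV comparisons, at chr16:96590840-97170752 (minus strand).

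The cells were divided by the UMIs of 2 gene groups, Xcr1, Clec9a, Cadm1 and Tlr3 for cDC1, and Sirpa, Itgam, Cd209a, Clec4a4 and Mgl2 for cDC2, and each cell went to the group with more UMIs. This gave 37 cDC1, 21 cDC2 and 6 unassigned cells. The division was sharp in most cells, since 37 cells held UMIs of the cDC1 genes only, 17 of the cDC2 genes only, 6 of both and 4 of neither. The groups differed by a margin of only 1 UMI in 12 cells. Of the unassigned cells, 1 from EV 2 with 17102 UMIs held 29 UMIs of Xcl1, 20 of Nkg7, 6 of Ncr1 and 6 of Prf1, genes of natural killer cells, and it was not marked as a doublet.

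**Figure D1:**
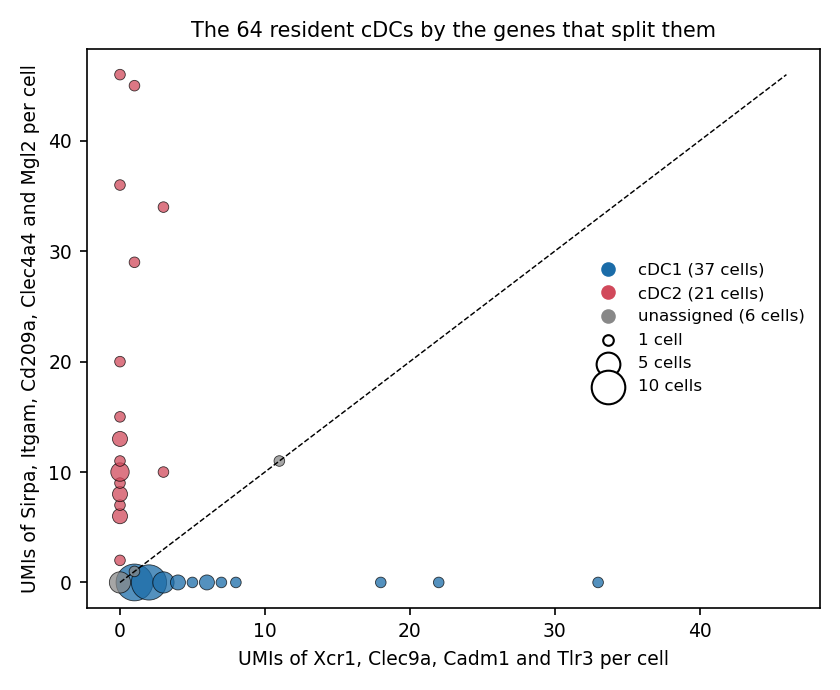
Each bubble is a set of resident cDCs with the same UMI sums of the 4 cDC1 genes (x axis) and the 5 cDC2 genes (y axis), and its area gives the number of cells. The 37 cDC1 and 21 cDC2 lie mostly along the axes, and the 6 unassigned cells have equal sums.

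Among the genes used for the division, Xcr1 was seen in 18 of 37 cDC1 at 336 CPM (UMIs per 1000000 summed UMIs of the group) and in 1 of 21 cDC2 at 3.24 CPM. Clec9a was seen in 25 cDC1 at 315 CPM and in 2 cDC2 at 13.0 CPM. Sirpa, an inhibitory receptor that binds CD47, was in 0 cDC1 and in all 21 cDC2 at 444 CPM, and the lectin gene Cd209a was in 0 cDC1 and 12 cDC2 at 593 CPM. The shares rest on unequal depth, because the median cDC1 had 3392 UMIs and the median cDC2 14590. In T cells, which should lack these genes and had a median of 7505.5 UMIs, Xcr1 was seen in 0.133% of cells, Clec9a in 0.106%, Sirpa in 0.332%, Flt3 in 0.843% and Zbtb46 in 0.962%.

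The shared genes of the rule were unequal between the subsets. Flt3 was seen in 11 cDC1 at 161 CPM and 20 cDC2 at 373 CPM, and Zbtb46 in 6 cDC1 at 87.3 CPM and 18 cDC2 at 279 CPM. The rule itself favours this direction, because a cDC1 could pass on Xcr1 or Clec9a, which few cDC2 held. Cst3 ran the other way, with 19352 CPM in cDC1 and 1510 CPM in cDC2, and H2-Aa was at 9941 and 7956 CPM. At these levels a mean of 3 Cst3 UMIs is reached in a cDC1 of 155 UMIs but only in a cDC2 of 1987 UMIs, and a mean of 1 UMI over Flt3, Zbtb46, Xcr1 and Clec9a in cells of 1112 and 1499 UMIs. The shallowest cDC2 had 9356 UMIs and the shallowest cDC1 675, and the source of this gap was not tested.

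Genes that neither the rule nor the division used also differed between the subsets, given here as a description with no test. Irf8, the transcription factor that cDC1 require, was seen in 34 of 37 cDC1 at 1410 CPM and in 3 of 21 cDC2 at 22.7 CPM. The lysosomal enzyme genes Naaa and Ppt1 were at 638 and 1061 CPM in cDC1 and at 87.5 and 90.7 CPM in cDC2. Cd8a, which marks resident cDC1 of lymphoid organs, was in 16 cDC1 at 201 CPM and in 0 cDC2, and the interferon-inducible gene Ifi205 was in 18 cDC1 at 329 CPM and in 0 cDC2. Rab7b, a small GTPase of endosomal traffic, was in 14 cDC1 and 1 cDC2, and Gcsam in 12 cDC1 and 0 cDC2. Batf3 and Wdfy4, a cross-presentation factor, overlapped between the subsets. Batf3 was in 21 cDC1 at 248 CPM and 12 cDC2 at 104 CPM. Wdfy4 was in 20 cDC1 at 886 CPM and in all 21 cDC2 at 470 CPM.

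Other genes had higher levels in the cDC2. Zeb2, a zinc-finger repressor, was in 20 of 21 cDC2 at 1195 CPM and in 0 cDC1. S100a4, a calcium-binding protein gene, was in 21 cDC2 at 3152 CPM and 2 cDC1 at 114 CPM, and the membrane protein genes Tmem176a and Tmem176b were in all 21 cDC2 at 690 and 962 CPM against 53.7 and 33.6 CPM in cDC1. Cd300a, an inhibitory receptor gene, was at 418 CPM in cDC2 and 67.1 CPM in cDC1. Etv6, a DC transcription factor gene, was in all 21 cDC2 at 1885 CPM and in 7 cDC1 at 228 CPM. Irf4, often used to define cDC2, was in 7 cDC2 and 0 cDC1. Not every cDC2 gene separated the subsets, as the next paragraph gives at equal depth.

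With every cell thinned to 2000 UMIs, which left 30 cDC1 and 21 cDC2, the genes listed next still differed. Irf8 was seen in 26 cDC1 and 0 cDC2, Naaa in 17 and 1, Ppt1 in 23 and 2, Cd8a in 10 and 0, and Ifi205 in 12 and 0. S100a4 was seen in 1 cDC1 and 21 cDC2, Zeb2 in 0 and 17, Tmem176a in 2 and 17, and Cd300a in 2 and 11. Other cDC2 genes separated the subsets little or not at all at this depth. Irf4 was seen in 0 cDC1 and 2 cDC2, Clec12a in 4 and 4, and Esam and Klf4 in 0 cells of either subset. Flt3 was seen in 5 of the thinned cDC1 and 13 of the thinned cDC2. As a gene of the rule, which was applied before this thinning, it is no independent difference.

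The cDC2 also held genes that are not particular to cDC2. Tcf4 and Runx2, transcription factor genes of the pDC list, were in 18 and 14 of 21 cDC2 at 547 and 305 CPM, and each was in 1 cDC1. Csf1r and Adgre1, a growth factor receptor and a surface marker of macrophages, were each in 12 cDC2 and 0 cDC1, Ly6c2 was in 9 cDC2 and Ms4a4c in 17. In the fixed pDC list, however, 6 of 10 genes were at 0 in all 64 cells, namely Siglech, by the rule, and Ly6d, Klk1, Cox6a2, Pacsin1 and Atp1b1, and the most abundant was Tcf4. The pDC list summed to 2273, 215, 475 and 714 CPM in control 1, control 2, EV 1 and EV 2. Over the cDC2 alone it summed to 5149, 0, 548 and 947 CPM. Control 1 holds 2 cDC2, in which Tcf4 was at 3136 CPM and Runx2 at 1239 CPM, against 183 and 112 CPM in EV 1 and 409 and 298 CPM in EV 2.

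Markers of other cell types were unequal in the 64 cells, and the monocyte list was the most abundant of those given next. Of the macrophage list, which includes the C1q genes of the rule, 7 of 12 genes were at 0 and Cd68 was the most abundant, and the list summed to 84.8, 215, 400 and 384 CPM in control 1, control 2, EV 1 and EV 2. Of the monocyte list, 4 of 12 were at 0 and Lyz2 was the most abundant, with sums of 1679, 1967, 5007 and 2471 CPM, higher in both EV libraries. Within each subset the groups overlapped, at 811, 907, 408 and 1022 CPM in cDC1 and 2787, 5637, 5005 and 2789 CPM in cDC2. The same list summed to 384 to 514 CPM in T cells and to 12625 to 21226 CPM in macrophages. Of the neutrophil list 6 of 7 were at 0, and of the T cell list, which includes the Cd3 genes of the rule, 6 of 11 were at 0. The part of the monocyte genes in the EV comparisons below was not tested. Ighm, the immunoglobulin heavy chain of B cells, was seen in 33 of the 64 cells at 118 CPM and in 66.0% of T cells at 179 CPM, which should lack it, so it was not read as expression.

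Of the 14 genes of the migratory list, 12 were seen in resident cDCs, but the list summed to 390, 1389, 1252 and 1133 CPM in control 1, control 2, EV 1 and EV 2, against 20719, 20713, 24859 and 30241 CPM in migratory DCs. Its most abundant gene was Adam23, in 19 of 64 cells at 551 CPM, and Il4i1, Ccl5 and Tmem123 were in 15, 15 and 18 cells. Ccr7, the receptor that guides DCs along lymphatics, was seen in 1 of 64 cells, Ccl22, Socs2, Cacnb3 and Nudt17 in 1 each and Ccl17 in 0. The 41 migratory DCs in the same libraries, chosen by Fscn1 and Ccr7, held 722 CPM of Ccr7 and 647 CPM of Ccl22. As mean CPM over libraries, Ccl5, a T cell chemokine, was at 141 in resident cDCs and 10373 in migratory DCs, and Plac8, Ms4a6c, Lyz2 and Plbd1 were at 685, 535, 1277 and 966 against 2.59, 0, 22.9 and 15.6. Ccr2, the receptor for monocyte chemokines, was at 363 against 0.

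Resident cDCs differed from the other myeloid populations of these nodes in named genes as well. Against 87 pDCs, the mean CPM of Aif1 was 477 against 7.20, of Id2, a repressor of E proteins, 398 against 16.3, and of Cxcl9, a chemokine induced by interferon gamma, 228 against 0, while the pDC genes Ly6d and Cox6a2 were at 0 against 2711 and 1159. Against 211 macrophages, Wdfy4 was at 536 against 28.6 and the immune receptor gene Btla at 231 against 14.5, while Apoe, which carries lipids, was at 13.4 against 13511 and the macrophage chemokine Ccl8 at 0 against 2153. These ratios compare populations chosen on genes of the same cells and carry no test.

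**Figure D2:**
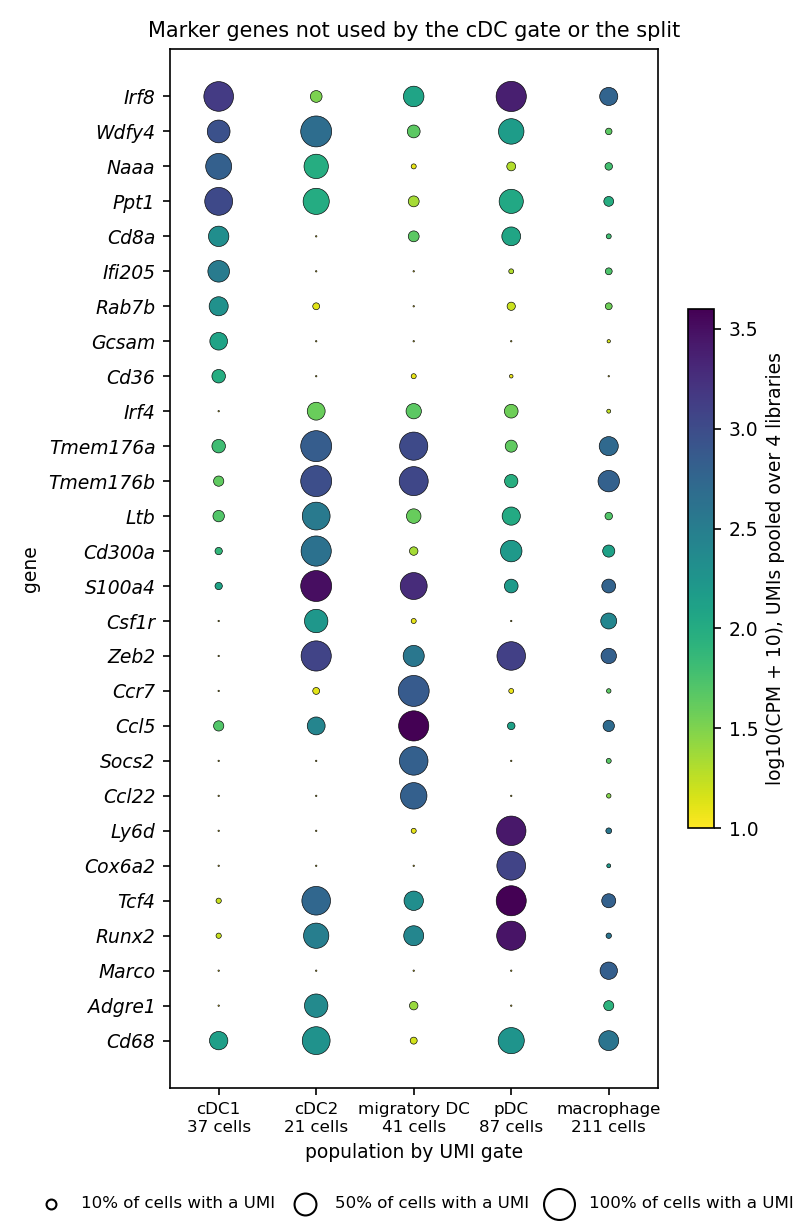
Dots show marker genes (rows) in cDC1, cDC2, migratory DCs, pDCs and macrophages (columns), with the area giving the percentage of cells with a UMI and the colour log10 of CPM plus 10. Irf8 is at 1410 CPM in cDC1 and 22.7 in cDC2, and Zeb2 at 0 and 1195; Ccr7 was used to choose the migratory DCs.

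Antigen presentation genes were abundant in both subsets. Cd74, the invariant chain that guards MHC class II on its way to the endosome, was in all 64 cells at 19783 CPM, with 22802 CPM in cDC1 and 18795 in cDC2. The class II chains H2-Ab1 and H2-Eb1 were in 63 cells each, at 6535 and 7332 CPM. Their levels in migratory DCs were 901 CPM for H2-Ab1 and 1957 for H2-Eb1. Ciita, the class II transactivator, was in 37 cells at 586 CPM, with 295 CPM in cDC1 and 739 in cDC2.

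Costimulatory and cytokine genes were sparse. Cd86, a ligand for CD28, was at 128 CPM in cDC1 and 126 in cDC2. Cd40 was in 5 cDC1 at 40.3 CPM and 15 cDC2 at 130 CPM, and Cd274, which encodes PD-L1, in 1 cDC1 and 9 cDC2. Il12b, a subunit of interleukin 12, was seen in 0 of 64 cells, against 8 of 41 migratory DCs, and Il15 was at 17.7 CPM against 594 CPM in migratory DCs. Cxcl9 was in 20 cDC1 at 584 CPM and 2 cDC2 at 113 CPM, and Il1b in 1 cDC1 and 8 cDC2.

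The share of resident cDCs did not separate EV from control libraries. They made up 13 of 8141 cells in control 1 (0.160%), 14 of 7891 in control 2 (0.177%), 13 of 8164 in EV 1 (0.159%) and 24 of 8529 in EV 2 (0.281%). The 95% exact binomial intervals, which cover counting error only, were 0.0851 to 0.273%, 0.0970 to 0.297%, 0.0848 to 0.272% and 0.180 to 0.418%. EV 1 lay at the level of the controls and EV 2 above them. The means were 0.169% ± 0.0125 (SD, n = 2) and 0.220% ± 0.0864 (SD, n = 2), with p = 1 in a two-sided exact permutation test, and without EV 2 the difference changed from 0.0518 to -0.00932 percentage points.

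The cDC1 share of the split was lower in both EV libraries. Of the assigned cells, cDC1 made up 10 of 12 in control 1 (83.3%, 95% exact binomial interval 51.6 to 97.9%), 11 of 12 in control 2 (91.7%, 61.5 to 99.8%), 5 of 12 in EV 1 (41.7%, 15.2 to 72.3%) and 11 of 22 in EV 2 (50%, 28.2 to 71.8%). Both EV libraries lay below both controls, with means of 45.8% ± 5.89 (SD, n = 2) against 87.5% ± 5.89 (SD, n = 2). The two-sided exact permutation p was 0.33, the smallest that 2 libraries against 2 allow, so the design cannot reach 0.05. Per 10000 cells, cDC1 numbered 12.3 and 13.9 in the controls and 6.12 and 12.9 in the EV libraries, with overlap, and cDC2 numbered 2.46 and 1.27 against 8.57 and 12.9, without overlap.

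The difference in the split varied with how cell depth was handled. Among cells of 1000 to 5000 UMIs, all 8, 9, 4 and 8 assigned cells of control 1, control 2, EV 1 and EV 2 were cDC1. The shallowest cDC2 had 9356 UMIs, so this range could show no difference between the groups. Among cells above 5000 UMIs, cDC1 and cDC2 numbered 1 and 2 in control 1, 1 and 1 in control 2, 1 and 7 in EV 1, and 3 and 11 in EV 2. When every cell was thinned to 2000 UMIs before the rule was applied, the cDC1 shares were 85.7% and 85.7% in the controls and 100% and 66.7% in the EV libraries, so the groups overlapped. These shares rest on 7, 7, 2 and 9 assigned cells of control 1, control 2, EV 1 and EV 2. When the rule used all UMIs and only the division used 2000 per cell, the shares were 71.4% and 100% against 25.0% and 53.3%, a difference of -46.5 points. With a UMI of Flt3 or Zbtb46 required, 3, 5, 10 and 16 cells of control 1, control 2, EV 1 and EV 2 were assigned. The shares were then 33.3% and 80% against 30% and 31.3%, a difference of -26.0 points, with control 1 near the EV libraries. Under a stricter rule (at least 10 UMIs of H2-Aa, 5 of Cst3 and 2 of the cDC genes) they were 100% and 100% against 0% and 63.6%, a difference of -68.2 points on 6, 5, 3 and 11 assigned cells.

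**Figure D3:**
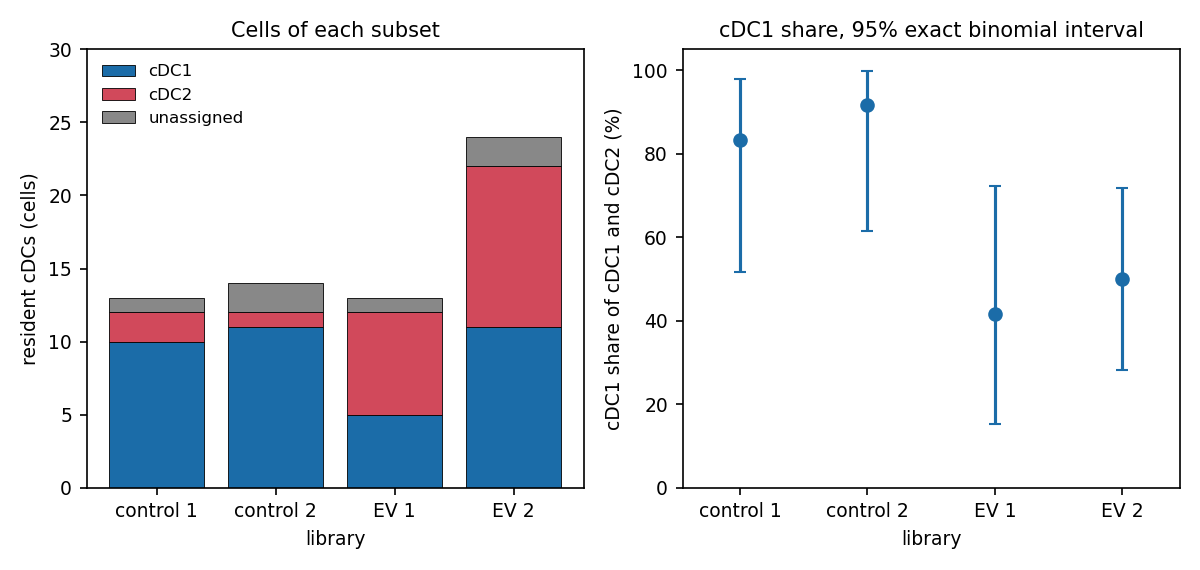
The left panel stacks the number of cDC1, cDC2 and unassigned cells in each library, and the right panel gives the cDC1 share of assigned cells with its 95% exact binomial interval. The controls stand at 83.3% and 91.7%, above the EV libraries at 41.7% and 50%.

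The resident cDCs of the EV libraries were deeper cells. Their median UMIs were 3548 in control 1, 2687 in control 2, 9575 in EV 1 and 10886 in EV 2, and the number above 5000 UMIs was 3, 2, 9 and 16. Both EV medians lay above both controls, with a two-sided exact permutation p of 0.33, the smallest possible. Within cDC1 the medians were 2187, 2548, 3951 and 3649, and within cDC2 12916, 13304, 14590 and 17424, the controls holding only 2 and 1 cDC2. Among all filtered cells the medians were 5502, 6561, 6639 and 6628, and in B cells 4123, 4880, 5795 and 5602, also higher in both EV libraries. Whether depth, the mixture of subsets or the treatment set the numbers of cDC2 cannot be told apart here.

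**Figure D4:**
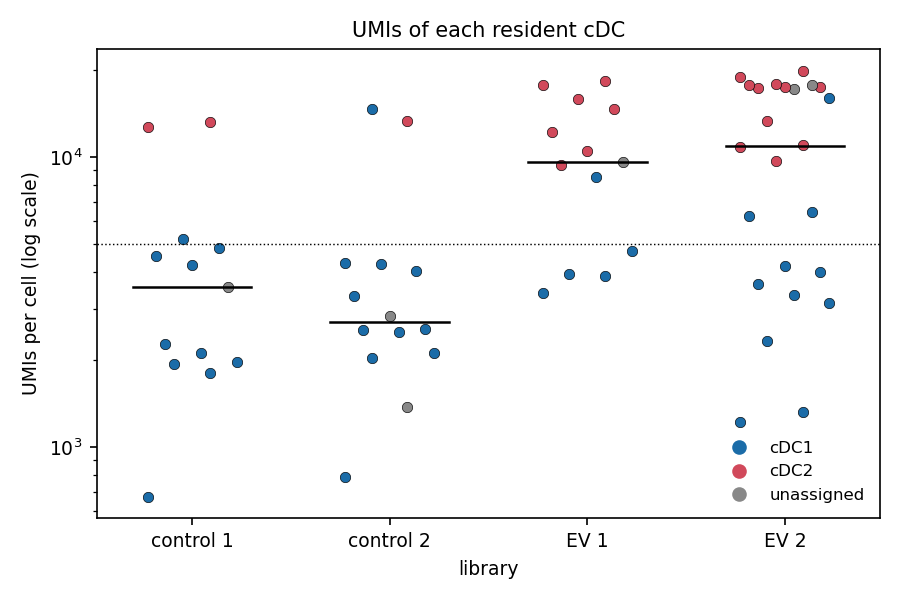
Each point is a resident cDC, placed by its UMIs on a log axis within its library and marked by subset, with a bar at the library median and a dotted line at 5000 UMIs. The control medians of 3548 and 2687 lie below the line, and the EV medians of 9575 and 10886 above it.

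For the comparison of gene levels, the UMIs of all resident cDCs of a library were summed, to 58965, 60489, 132606 and 257783. A gene was called when the adjusted p of edgeR's quasi-likelihood test was below 0.05. Of 1528 genes tested, 0 were called (0%), with a smallest adjusted p of 0.0902. At an unadjusted p below 0.05 there were 238 genes (15.6%), 132 higher (8.64%) and 106 lower (6.94%) in the EV libraries. For 704 genes (46.1%) the libraries of the groups did not overlap, 393 higher (25.7%) and 311 lower (20.4%). DESeq2 called 13 genes of the 579 for which it gave an adjusted p. Leaving out EV 2, the library with most cells, gave 43 calls with edgeR, and 24 genes were called without upper limits on genes and UMIs and with a 5% mitochondrial limit. Because the EV libraries held more cDC2, these sums differ in subset as well as in treatment, and 204 of the tested genes passed the filter on low counts through the EV libraries only and 27 through the control libraries only. The counts and medians of gene lists below describe the members that passed and support no direction. For a single gene, fewer cells that hold it and less of its RNA per cell cannot be told apart in these sums.

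The genes named next had the 10 smallest unadjusted p-values in each direction among genes without overlap, and none of them was called. Of the 10 higher ones, 9 had both control libraries below the filter on low counts of 104 CPM (Ifitm2 was the exception), so they entered the test through the EV libraries and could only come out higher. Higher in both EV libraries was Dscam, a cell adhesion molecule of the immunoglobulin family, with 0 UMIs in both controls, 83 UMIs in EV 1 (626 CPM) and 194 in EV 2 (753 CPM). Against the floor of 3 counts per library this is at least 13.7-fold higher. Of these 277 UMIs, 199 lay in 11 of the 21 cDC2, at 843 CPM in EV 1 and 678 in EV 2, and the rest in 2 unassigned cells of EV 2. Dscam was at 0 in all 37 cDC1 and in the 3 cDC2 of the control libraries. It was not absent from other DCs of the controls. In migratory DCs Dscam was at 136 and 951 CPM in the controls and 840 and 461 in the EV libraries. Lcp2, an adaptor of immune receptor signalling also known as SLP-76, had 0 UMIs in the controls and 173 and 182 CPM in the EV libraries, at least 3.54-fold higher.

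Ube2e2, a ubiquitin-conjugating enzyme gene, was at 17.0 and 16.5 CPM in the controls, on 1 UMI each, and at 430 and 384 CPM in the EV libraries. Its pooled ratio was 23.9 with a 95% counting interval of 6.50 to 199, and its level was 20.1 CPM in cDC1 and 502 in cDC2. Ifitm3, an interferon-inducible gene that restricts viral entry, was at 17.0 and 82.7 CPM against 2594 and 729 CPM, a log2 difference of 4.89 ± 0.89 (SE). Its neighbour Ifitm2 was at 119 and 99.2 CPM against 995 and 485 CPM. The subset levels were 73.8 CPM in cDC1 and 1604 in cDC2 for Ifitm3, and 101 and 758 for Ifitm2.

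Nrros, which holds latent TGF-beta on myeloid cells, was at 102 and 99.2 CPM in the controls and 528 and 632 in the EV libraries, a log2 difference of 2.40 ± 0.42 (SE). Man1a, a mannosidase of glycan trimming, was at 50.9 and 49.6 CPM against 400 and 555, and Ccnd1, which encodes cyclin D1, at 33.9 and 49.6 against 422 and 268. Immp2l and Map3k3 completed the 10. All 10 genes had a higher level in cDC2 than in cDC1 over the 4 libraries.

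The genes with the smallest p-values among those lower in the EV libraries were ribosomal protein genes, Tmsb4x and Txn1. Rps29, a small-subunit protein gene, was at 9921 and 8415 CPM in the controls and 4457 and 3720 in the EV libraries, a log2 difference of -1.29 ± 0.15 (SE) with an adjusted p of 0.0902. Txn1, which encodes the redox protein thioredoxin, was at 678 and 694 CPM against 189 and 190. Tmsb4x, which sequesters actin monomers, was at 32409 and 32733 CPM against 24773 and 21762. These genes were higher in cDC1, with 8370 CPM of Rps29 in cDC1 and 3858 in cDC2, 846 and 68.0 CPM of Txn1, and 40255 and 18112 CPM of Tmsb4x. With every cell thinned to 2000 UMIs the log2 difference was above 0 for Tmsb4x (0.09) and Txn1 (0.23), and it was -0.83 for Rps29.

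**Figure D5:**
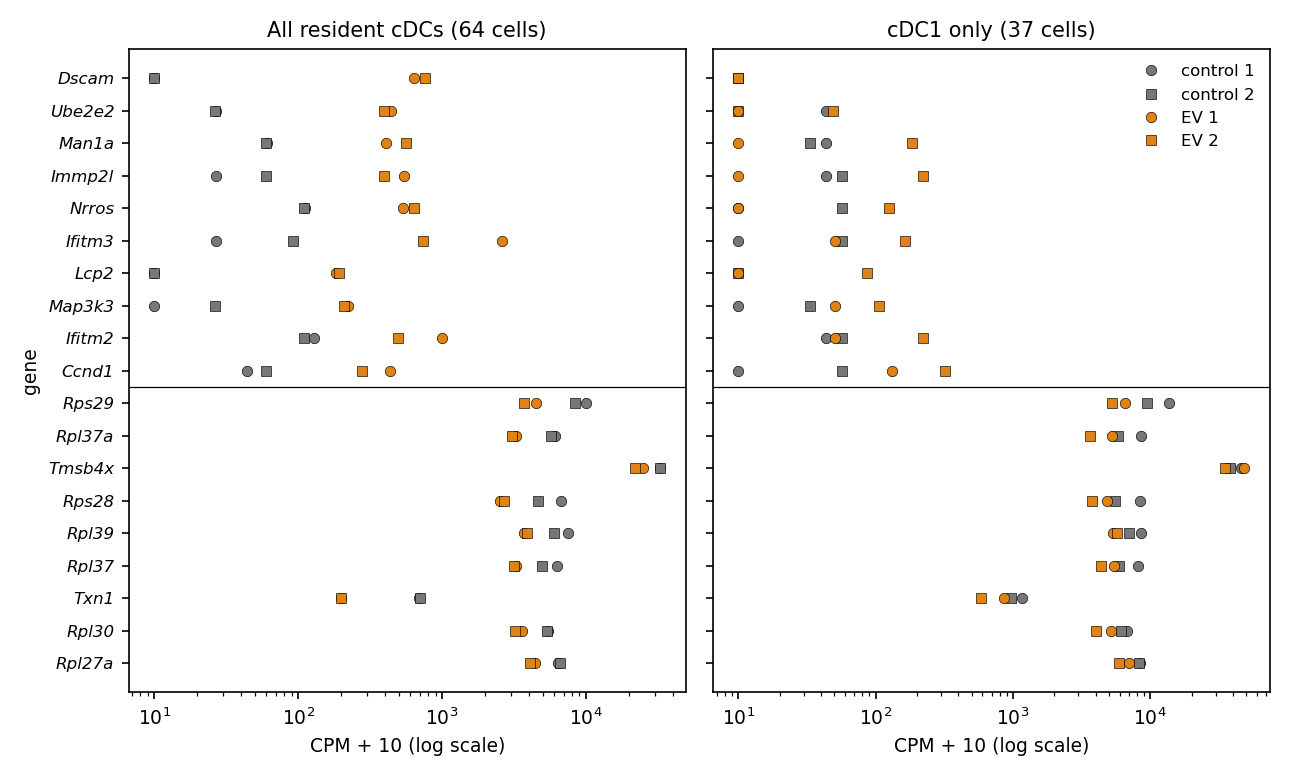
Points give the level (CPM plus 10, log axis) of 10 genes higher and 9 lower in the EV libraries, chosen by the smallest p, per library, in all resident cDCs and in cDC1 alone. Dscam is at 0 in both controls and at 626 and 753 CPM in the EV libraries, and it is at 0 in cDC1 of all 4 libraries.

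The cDC1 were therefore compared alone, a comparison added after the data were seen, on 10, 11, 5 and 11 cells. Of 404 genes tested, 0 were called (0%), 27 had an unadjusted p below 0.05 (6.68%), of which 6 were higher (1.49%) and 21 lower (5.2%), and 148 did not overlap (36.6%), 75 higher (18.6%) and 73 lower (18.1%). Rps29 was at 13621 and 9514 CPM in the controls and 6525 and 5300 in the EV libraries, a log2 difference of -0.90 with an edgeR adjusted p of 0.668. Cd74 was higher in both EV libraries, with 19638 and 19959 CPM against 28222 and 24402, a log2 difference of 0.47 and an adjusted p of 0.675. Cxcl9 was at 473 and 116 CPM against 734 and 964. Tmsb4x had a log2 difference of 0.04 in cDC1, against -0.61 over all resident cDCs. Comparisons within cDC2, and between the subsets, were not run. Neither subset met the planned minimum of 20 cells per library, which was set aside for cDC1 only.

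The subset lists were also compared between the groups. Irf8 was at 865 and 1008 CPM in the controls and 166 and 365 in the EV libraries over all resident cDCs, a log2 difference of -1.91 with an edgeR adjusted p of 0.160. In cDC1 alone it was at 1521 and 1396 CPM against 693 and 1696, a log2 difference of -0.09, and the groups overlapped. Of the 12 further cDC1 genes, 5 passed the filter on low counts, of which 4 were lower without overlap (20.4% of all genes) and 1, Irf8, had an unadjusted p below 0.05 (6.94%), with a median log2 difference of -0.96. Of these 5, 1 passed through the control libraries only and could only come out lower. In cDC1 alone 5 genes of this list were tested, with Ifi205 among them. Over all resident cDCs Ifi205 did not pass the filter, at 220 and 82.7 CPM in the controls and 60.3 and 93.1 in the EV libraries. The 2 medians therefore cover different sets of genes. The median in cDC1 was above 0, at 0.49 (0.09 over all genes tested there), with 0 without overlap. The log2 difference in cDC1 was 0.29 for Wdfy4, 0.49 for Naaa, 0.74 for Ppt1 and 0.80 for Ifi205. Of the 15 further cDC2 genes, 9 passed, of which 5 had an unadjusted p below 0.05 and were higher (Tmem176a, Tmem176b, Ltb, S100a4 and Relb, 8.64% of all genes) and 1, Clec12a, lower (6.94%), with a median of 1.23. Of these 9, 3 passed through the EV libraries only and 1 through the control libraries only. The median over all 1528 genes was 0.04, and both lists are tied to the genes that divided the cells.

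Every tested ribosomal protein gene had lower values in both EV libraries, and none was called. Of 83 genes, 79 were tested, all 79 were lower without overlap (20.4% of all genes tested) and 61 were lower at an unadjusted p below 0.05 (6.94% of all genes), with a median log2 difference of -0.55 (0.04 over all genes). Their summed level was 333486 and 309676 CPM in the controls and 238036 and 220007 CPM in the EV libraries. In cDC1 alone 43 of 79 were lower without overlap and 3 higher (18.1% and 18.6% of all genes tested in cDC1), 19 were lower at an unadjusted p below 0.05 (5.2%), and the median was -0.21 against 0.09 over all genes tested. The ribosomal share per cell had medians of 41.6% and 42.7% in control cDC1, 37.5% and 30.4% in EV cDC1, and 23.6%, 15.6%, 18.8% and 20.3% in cDC2. Over all filtered cells it was 27.7% and 28.6% in the controls and 25.5% and 23.8% in the EV libraries.

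Antigen presentation genes had medians near that of all genes tested. Of 15 MHC class II genes, 10 were tested, 0 called and 2, H2-DMb2 and Ciita, higher at an unadjusted p below 0.05 (8.64% of all genes), with a median log2 difference of 0.20. Of these 10, 1 passed through the EV libraries only. In cDC1 alone 8 were tested and 2 were higher at an unadjusted p below 0.05 (1.49% of all genes tested there), with a median of 0.22. Cd74 was at 14348 and 18582 CPM in the controls and 24833 and 18710 in the EV libraries, a log2 difference of 0.28 ± 0.18 (SE). Of 23 genes of MHC class I and cross-presentation, 17 were tested and 1, the proteasome activator Psme1, was lower at an unadjusted p below 0.05 (6.94% of all genes), with a median of -0.02 and of 0.29 over the 11 tested in cDC1 alone. H2-D1, a class I heavy chain gene, was at 1238 and 1389 CPM against 1508 and 1311.

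Activation and cytokine genes were few after the filter, and none was called. Of 20 costimulation and checkpoint genes, 7 were tested and 2 were higher at an unadjusted p below 0.05 (8.64% of all genes), Cd40 with 0 and 1 UMIs in the controls against 15 and 32, and Cd274 with 0 and 0 against 17 and 30. Both passed the filter through the EV libraries only and could only come out higher. Of 23 cytokine and chemokine genes, 4 were tested and 2 were higher at an unadjusted p below 0.05 (8.64% of all genes), Il1b with 1 and 0 UMIs against 67 and 33, and Ccl5 with 4 and 4 against 29 and 54, and these 2 also passed through the EV libraries only. Il1b was seen in 8 cDC2 and 1 cDC1. Of 21 cytokine receptors 7 were tested, 0 had an unadjusted p below 0.05 and 4 were higher without overlap (25.7% of all genes), 2 of the 7 having passed through the EV libraries only, with Ifngr1, the interferon gamma receptor, at 204 and 231 CPM against 513 and 337.

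The interferon and NF-kB lists had higher summed levels in both EV libraries. Of 40 interferon-response genes measured, 4 were tested, 0 were called, 2 of the 4 passed through the EV libraries only, and the median log2 difference was 0.85. Of the 4, 1 was higher at an unadjusted p below 0.05 (8.64% of all genes) and 2 were higher without overlap (25.7%). The list summed to 1187 and 760 CPM against 3311 and 1645. Its sums were 1284 and 744 CPM against 1672 and 2448 in cDC1, and 1007 and 752 against 3533 and 1555 in cDC2. The control cDC2 numbered only 2 and 1. Its sums were also higher in both EV libraries in T cells, at 1247 and 1332 CPM against 1709 and 1773, and in B cells, at 735 and 785 CPM against 1158 and 1136. Of 18 NF-kB genes, 10 were tested and 3 were higher at an unadjusted p below 0.05 (Relb, Nfkbia and Traf1; 8.64% of all genes), 3 of the 10 having passed through the EV libraries only, with list sums of 1611 and 1835 CPM against 3205 and 3518 and a median of 0.89. Nfkbia, the inhibitor that NF-kB induces, was at 204 and 231 CPM against 535 and 481, and at 262 CPM in cDC1 and 528 in cDC2. Of 21 immediate early genes, 7 were tested and 3, Junb, Ier5 and Nfkbia, were higher at an unadjusted p below 0.05 (8.64% of all genes), 2 of the 7 having passed through the EV libraries only, with a median of 1.10. Tissue dissociation is known to raise genes of this list, and its part in these differences was not tested.

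Transcription factors showed both directions. Of 22 DC transcription factor genes, 15 were tested, 3 were higher (Relb, Etv6 and Irf2) and 2 lower (Irf8 and Rbpj) at an unadjusted p below 0.05, with a median of 0.02. Over all genes 8.64% were higher and 6.94% lower at that p, and 2 of the 15 passed through the EV libraries only. Etv6 was at 611 and 810 CPM in the controls and 1486 and 1478 in the EV libraries. Zeb2 was at 678 and 777 CPM against 490 and 1036, and overlapped. Among homing genes, of which 6 of 19 were tested, 1 having passed through the EV and 1 through the control libraries only, Ccr2 was lower with 560 and 413 CPM against 287 and 194 although its level was higher in cDC2 than in cDC1, and the integrin gene Itga4 was higher with 50.9 and 165 against 234 and 636.

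The other lists held few tested genes. Of 30 endosome, lysosome and phagocytosis genes 13 were tested and 3, Lamp1, Ctsh and Tyrobp, were higher at an unadjusted p below 0.05 (8.64% of all genes), with a median of 0.54, and 2 of the 13 passed through the EV libraries only. Heat shock genes (9 of 22 tested) had a median of -0.09, glycolysis genes (7 of 15) -0.18 and pattern recognition genes (2 of 24) -0.10, each with 0 genes at an unadjusted p below 0.05. Of 23 proliferation genes 4 were tested, with a median of -0.51, 1 passed through the control libraries only, and Pcna was lower at an unadjusted p below 0.05 (6.94% of all genes). In cDC1 alone the medians were above 0, at 0.26 for 4 proliferation genes, 0.80 for 2 glycolysis genes and 0.12 for 5 heat shock genes. Cells with a UMI of Mki67 or Top2a numbered 0, 2, 3 and 3 in control 1, control 2, EV 1 and EV 2, and 0, 0, 1 and 0 with cells thinned to 2000 UMIs. Of 13 mitochondrially encoded genes 10 were tested, with a median of 0.29.

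The kinase gene Cdk8, which the study follows together with its paralog Cdk19, had 42 UMIs in control 1, 13 in control 2, 21 in EV 1 and 18 in EV 2. These are 712, 215, 158 and 69.8 CPM, lower in both EV libraries, with a log2 difference of -2.18 ± 0.69 (SE), an unadjusted p of 0.0173 and an edgeR adjusted p of 0.229, so it was not called. Its 2 controls differed from each other by more than control 2 differed from EV 1. Cdk8 was also lower in both EV libraries in cDC1 alone, at 879 and 233 CPM against 204 and 57.8. These levels rest on few UMIs, from cDC1 sums of 29586, 42988, 24520 and 51882 UMIs in control 1, control 2, EV 1 and EV 2. Cdk8 did not pass the filter on low counts in cDC1 and was not tested there. Cdk8 is a protein-coding gene of the mediator kinase module, a list of 7 genes of which 2 were tested, Cdk8 and Med13l, the latter with a log2 difference of 0.60 and an unadjusted p of 0.266. The sums of that list overlapped in resident cDCs, at 933 and 512 CPM in the controls and 452 and 706 in the EV libraries, and were lower in both EV libraries in B cells (1368 and 1045 against 878 and 776) and T cells (1180 and 856 against 648 and 521). Cdk8 was also placed in the list of abundant nuclear or ribosomal RNA-like transcripts. In that list Gm42418, which overlaps ribosomal RNA sequence, was at 6953 and 25955 CPM in the controls and 5882 and 1265 in the EV libraries. In the same list 3 of 8 tested genes were lower and 2 higher at an unadjusted p below 0.05 (6.94% and 8.64% of all genes), and the median was -1.65. Of these 8, 1 passed through the EV libraries only and could only come out higher. Cdk19 was at 33.9, 49.6, 45.2 and 213 CPM and did not pass the filter.

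Whether resident cDCs differed from the other cells of the same libraries was tested as an interaction. The makeup of these other cells differed between the groups. B cells numbered 2878 and 2406 in the controls against 4672 and 4163 in the EV libraries, and T cells 4486 and 4652 against 2513 and 3417. The interaction therefore carries this makeup and the mixture of cDC subsets, which cannot be told apart from a response. The EV effect in resident cDCs minus that in all other filtered cells had an adjusted p below 0.05 for 0 of 1528 genes (0%) with edgeR, and an unadjusted p below 0.05 for 221 (14.5%). DESeq2 called 1 gene, Dscam. Without control 1 the count was 60, and without control 2 it was 102. No gene is therefore named as particular to the response of resident cDCs.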

How the data were processed

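Cells of draining lymph nodes were captured with a 3′ single-cell kit, and the deposited matrices hold UMI counts per gene and cell, which the authors made with Cell Ranger 7.1.0 on mm10 per the labels. The annotation release is not given in the sources used here. Reads were not reprocessed. All 32285 features were kept, and 3′ UMI counts were not divided by gene length.

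Members and gene lists were chosen with earlier results of these data known. Cells with 200 to 5000 genes, at most 20000 UMIs and under 10% mitochondrial UMIs were kept, and doublets were marked with Scrublet in scanpy 1.11.5 but not removed. Cells were divided by cDC1 and cDC2 genes, and the authors' cell types and tests over single cells were not used. UMIs were summed per library, giving 58965 to 257783, and tested with edgeR 4.0.16 (filterByExpr, TMM, glmQLFit, glmQLFTest, Benjamini-Hochberg 0.05) on 2 control and 2 EV libraries. Genes of the rule were left out of the test, and of the other genes that divide the subsets Cadm1, Sirpa and Cd209a were tested. Shares were compared by exact permutation over libraries, with Clopper-Pearson intervals. CPM are UMIs per 1000000 summed UMIs of the group of cells, and folds against 0 use a floor of 3 counts per library.

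The filter passed 1528 genes, of which 204 passed through the EV libraries only and 27 through the control libraries only. Named genes were those of the rule and division, the 10 smallest p-values in each direction without overlap (no gene being called), the 3 most abundant members of each list, population ratios with a pseudocount of 10 CPM among genes of at least 50 CPM, and Cdk8 and Cdk19. Members at an unadjusted p below 0.05, and markers quoted per subset, were named after their values were seen. On simulated counts for this comparison the test recovered 0% of genes changed 2-fold, 55.4% of 186 changed 4-fold and 99.0% of 199 changed 8-fold. Tests within cDC1 and cDC2, and against migratory DCs, were planned with a minimum of 20 cells per library and were not run as planned. The later comparison of cDC1 alone, on 5 to 11 cells per library, set this minimum aside. This minimum was not set for the comparison of all resident cDCs, which rests on 13 to 24 cells per library.

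Alternatives were DESeq2 1.42.0, no expression filter, library totals without TMM, totals without ribosomal, mitochondrial, heat shock and ribosomal RNA-like genes, a replicate block, other cell limits, doublets left out, a stricter rule, thinning to 2000 UMIs, other divisions and each library left out. Comparing cDC1 alone, cells of 1000 to 5000 UMIs, cells above 5000 UMIs, and a division on 2000 UMIs were added after seeing the data. R 4.3.3 and Python 3.11.15 were used. Of the genes these rules name, 2 are not reported here.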

Additional observations from a re-analysis of the deposited data

How the results depend on the processing

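The share of resident cDCs changed sign when cells were thinned to 2000 UMIs (-0.0179 percentage points) and ranged from -0.00932 to 0.113 with 1 library left out, the lowest without EV 2. The cDC1 share differed by -45.8 to -37.5 points with 1 library left out, and by 0 among cells of 1000 to 5000 UMIs, -24.7 among cells above 5000 UMIs, -26.0 with Flt3 or Zbtb46 required, -2.38 at 2000 UMIs and -68.2 with the stricter rule. The value of 0 was fixed, since no cDC2 lay in that range. The difference was -46.5 points with only the division on 2000 UMIs, -44.2 with a margin of 2 UMIs and -35.3 with cDC1 chosen by Xcr1 or Clec9a alone. The number of genes called, 0 with edgeR, was 13 with DESeq2, 9 without the expression filter, 24 without upper limits on genes and UMIs and a 5% mitochondrial limit, 1 at 2000 UMIs and 0 to 43 with 1 library left out. With the replicate number as a block it was 92 (61 higher, 31 lower); deviations of same-numbered libraries correlated at 0.198 across 1528 genes, but with 2 pairs the numbers do not establish a pairing. For the difference from all other cells the number was 1 with DESeq2, 25 without the filter and 0 to 102 with 1 library left out. Of 33 genes with small p-values compared across settings, sign changed for Tmsb4x (0.0856 at 2000 UMIs and 0.0424 in cDC1 alone), Txn1 (0.228 at 2000 UMIs) and Rps24 (0.0784 with the stricter rule), and for none with 1 library left out. Of named genes outside these 33, at least Wdfy4 (0.29), Naaa (0.49), Ppt1 (0.74) and H2afz (0.47) changed sign in cDC1 alone. Library totals without TMM moved the median of all genes from 0.04 to 0.16. The causes were not tested. With 64 cells, a gene below about 104 CPM was not tested, and intervals cover counting error only.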

Other observations

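A further 51 cells met every condition but held no UMI of Flt3, Zbtb46, Xcr1 or Clec9a, with 5 in control 1, 12 in control 2, 19 in EV 1 and 15 in EV 2. Their median UMIs were 2093, 2122, 12530 and 2655. Lyz2, the lysozyme gene of monocytes and macrophages, was seen in 30 of them at 9943 CPM, against 1446 CPM in the 64 resident cDCs, and Ly6c2, a marker of classical monocytes, in 18 at 929 CPM against 139. Plac8 was at 4676 CPM against 777 and Csf1r at 576 against 141. Batf3 was seen in 15 of the 51 cells and Cd209a in 3.

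Barcodes that met the gene conditions but exceeded the upper limits on genes or UMIs numbered 5 in control 1, 0 in control 2, 4 in EV 1 and 2 in EV 2, and by the same division those of control 1 were 5 cDC1 and 0 cDC2, those of EV 1 were 2 and 2, and those of EV 2 were 1 and 1.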
